A study of Mus musculus with 6 samples.

Results

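The genes described here encode the proteins that carry a signal from a receptor at the cell surface to adenylyl cyclase and then end it: 10 G protein alpha subunits, 4 beta and 6 gamma subunits, 12 regulators of G protein signalling (RGS proteins), 2 receptor kinases and 2 arrestins. These 36 genes were chosen by name and make up 36 of the 54385 rows of the deposited table. Polyadenylated RNA was sequenced in paired-end libraries from the heat-producing brown fat of C57BL/6N animals, 20 weeks old and fed chow. There were 3 libraries of wild type (WT, genotype wt/wt) and 3 of ADCY3∆AT, animals without Adcy3-AT, a truncated adenylyl cyclase 3 whose expression the title of the series calls induced by cold. Neither the way the allele was made nor the cells it acts in is given in the sources used here, and nothing says whether replicates came from separate animals, so p-values measure the spread between these libraries, which may be partly technical. Sample labels name the interscapular depot and the series' design text an inguinal one. All 12 brown adipocyte markers were detected, with Ucp1, the uncoupling protein of brown fat, at 4786 ± 963 CPM (SD, n = 3) in WT and 4239 ± 231 CPM in ADCY3∆AT.

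In brown adipocytes, noradrenaline acts on beta-adrenergic receptors, which load the stimulatory alpha subunit (Gs, from Gnas) with GTP so that it switches on adenylyl cyclase. Inhibitory alpha subunits (Gi) lower the activity of the enzyme, while the Gq class leads to phospholipase C, and the G12 class is a further family. RGS proteins speed the hydrolysis of GTP on alpha subunits and so shorten the signal, receptor kinases phosphorylate active receptors, and arrestins then bind the receptors and uncouple them.

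Depth and makeup of the libraries set the limits of these comparisons. Totals ran from 13758492 to 19592156 estimated counts. Levels are TMM-scaled CPM (library-size-scaled counts, with factors from the trimmed mean of M-values), and levels of different genes are compared only as CPM per kilobase of exon, summed over all annotated exons of a gene. The row of Adcy3 held 208 ± 40.7 CPM in WT and 201 ± 36.5 CPM in ADCY3∆AT (SD, n = 3), and a second row that ends in the same digits (ENSMUSG66666620654) held 118 to 215 CPM in WT and at most 1.27 CPM in ADCY3∆AT. WT replicate 3 stood apart in its muscle RNA. The 17 skeletal muscle markers summed to 769 CPM there, and to 28.2 and 132 CPM in the other WT libraries. They summed to between 2.63 and 4.46 CPM in ADCY3∆AT, where Pvalb was at 0 in every library. By chi-square per gene on raw counts, values between libraries of 1 genotype were 19.3 to 26.8 in ADCY3∆AT and 6.18 to 16.6 in WT. This measure grows with depth, which differed between libraries, and the order did not hold for every gene. The SD of Gnas was larger in WT (554 against 348 CPM), and that of Rgs2 in ADCY3∆AT (38.5 against 12.4 CPM). Without WT replicate 3, the log2 fold changes of 19 of the 32 tested members moved by over 1.5 times, 2 of them (Gng10 and Grk5) to the other sign. Many of these values lie near 0, and the share of all genes that moved as far was not counted. Other libraries mattered too: without WT replicate 2, Gnao1, Gnaq, Gnb4, Gng2, Rgs14 and Grk5 turned sign. Values without WT replicate 3 are given beside the results for many of the members, and the part of muscle RNA in these shifts was not tested.

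Rgs2 rose in ADCY3∆AT, and no other gene of this signalling machinery passed the test. Of the 36 members, 32 had enough counts to be tested, and edgeR's quasi-likelihood test called 1 higher and 0 lower in ADCY3∆AT at a Benjamini-Hochberg adjusted p under 0.05, where 4.30% of the 14332 genes tested were called (2.63% higher and 1.67% lower). An unadjusted p under 0.05 was reached by 7 of the 32, 5 higher and 2 lower, beside 22.6% of all genes. DESeq2 called 2 of the members higher and 0 lower, where it called 6.93% of all genes. With limma-voom these counts were 1 and 0, beside 3.66% of all genes. The median log2 fold change (ADCY3∆AT minus WT) was 0.04 over the 32, from -0.31 for Grk6 to 0.78 for Rgs2, and -0.01 over all genes tested. Libraries of the genotypes did not overlap for 9 of the 32, 5 higher and 4 lower, against 29.0% of all genes. All 3 counts of the members lie close to the shares over all genes. For 19 of the 32 the 95% interval of the log2 fold change lay within 0.5 of 0, as it did for 45.5% of all genes.

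**Figure D1:**
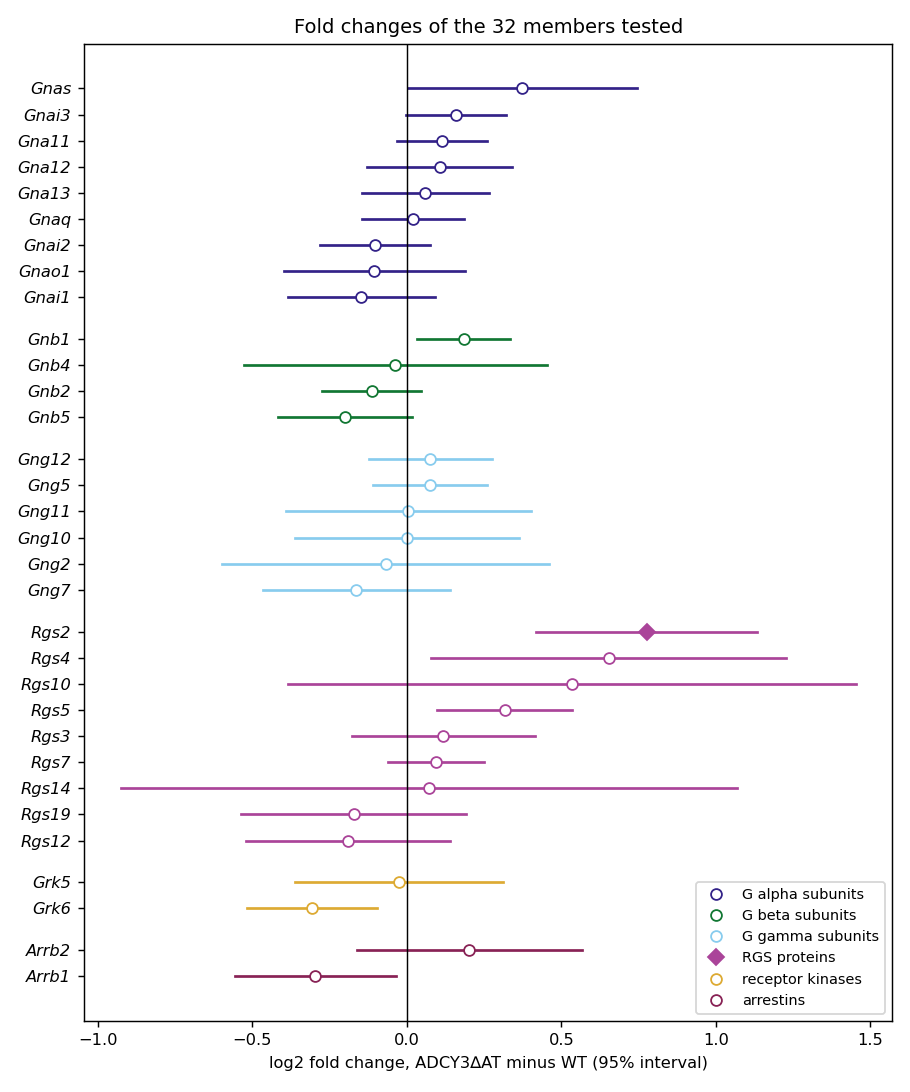
Log2 fold change (ADCY3∆AT minus WT, x axis) of the 32 members tested, with 95% intervals from edgeR, ordered within each role. The filled diamond marks Rgs2, the 1 member with an adjusted p under 0.05, and open circles mark the other 31.

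Rgs2 encodes an RGS protein of the R4 subfamily that acts on Gq and is also known to bind adenylyl cyclases. It lies on chromosome 1 from 143999338 to 144004161 on the minus strand (GRCm38), and its exons overlap no other annotated gene. In replicates 1, 2 and 3 its level was 105, 118 and 92.8 CPM for WT and 186, 139 and 215 CPM for ADCY3∆AT. All 3 ADCY3∆AT libraries lay above all WT libraries, and they spread more widely (180 ± 38.5 against 105 ± 12.4 CPM, SD, n = 3). Rgs2 rose 1.71-fold (95% interval 1.34 to 2.19, log2 0.78, SE 0.16, edgeR adjusted p = 0.0346). The exact permutation p was 0.1, two-sided, the smallest that 3 against 3 libraries allow. In edgeR the call held without ADCY3∆AT replicate 2 (log2 0.93, adjusted p = 0.0204) and ended without WT replicate 1 (0.78), 2 (0.87) or 3 (0.69) and without ADCY3∆AT replicate 1 (0.76) or 3 (0.63), with adjusted p-values up to 0.128. Those fits have 1 library fewer, and the log2 fold change stayed between 0.63 and 0.93.

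The promoters of Rgs2, of Rgs4 and of Rgs5 are shown because these are the RGS genes with the smallest p-values. Each is the 250 bases before the RefSeq start site in GRCm38.p6, read along the gene's strand, with capitals marking TGACG, the core of the cyclic AMP response element, or its reverse complement CGTCA.
Rgs2, chr1:144004150-144004399, minus strand: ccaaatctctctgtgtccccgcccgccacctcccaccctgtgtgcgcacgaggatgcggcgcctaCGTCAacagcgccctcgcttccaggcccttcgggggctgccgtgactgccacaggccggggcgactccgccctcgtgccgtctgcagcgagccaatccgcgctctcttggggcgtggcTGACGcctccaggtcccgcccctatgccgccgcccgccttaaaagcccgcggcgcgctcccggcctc
Rgs4, chr1:169747643-169747892, minus strand: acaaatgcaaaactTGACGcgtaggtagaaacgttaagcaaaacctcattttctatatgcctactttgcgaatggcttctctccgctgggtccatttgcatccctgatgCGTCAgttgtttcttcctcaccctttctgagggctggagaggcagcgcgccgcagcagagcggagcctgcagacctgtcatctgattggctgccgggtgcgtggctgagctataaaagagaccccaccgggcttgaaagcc
Rgs5, chr1:169655251-169655500, plus strand: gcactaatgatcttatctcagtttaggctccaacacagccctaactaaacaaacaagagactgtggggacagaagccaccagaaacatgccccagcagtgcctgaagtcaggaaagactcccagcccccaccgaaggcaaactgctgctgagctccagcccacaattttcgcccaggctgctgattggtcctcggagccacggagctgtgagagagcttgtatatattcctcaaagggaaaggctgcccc
The Rgs2 window held the motif at 2 places, whose first printed bases lie 185 and 67 bases before the start, and the Rgs4 window at 2 places, 236 and 141 bases before it. The Rgs5 window held none. Searched on both strands, TGACG was found in 17.8% of all 32851 windows of this length and at 2 or more places in 3.90% of them. Counted by gene, it was in at least 1 window of 6 of the 28 members with a window (Gnas, Gnb1, Gng7, Rgs12, Rgs2 and Rgs4) and of 19.8% of all genes. The full element TGACGTCA, which contains the core, was found for 0 members and for 1.77% of all genes (1.55% of windows). Of the heat shock element pairs, TTCNNGAA was found for 4 members and 8.11% of all genes (7.17% of windows), and GAANNTTC for 1 member and 7.73% of all genes (6.69% of windows). The E-box CACGTG was found for 4 members and 6.86% of all genes (6.02% of windows). These matches are letters in a window, not measured binding.

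Rgs5 and Rgs4, R4 relatives of Rgs2 known as markers of pericytes and smooth muscle, had positive fold changes that did not pass the test. Rgs5 had the highest length-scaled level of the RGS genes. Its level was 313, 313 and 253 CPM in the WT libraries, again in the order of their replicate numbers, and 345, 365 and 384 CPM in those of ADCY3∆AT. The libraries did not overlap, and the difference on the log2 scale was 0.32 (95% interval 0.10 to 0.53, SE 0.10, edgeR adjusted p = 0.102). The DESeq2 Wald test called it (adjusted p = 0.0462), and without WT replicate 3, the lowest library, the value was 0.22. Rgs4, picked after its values were seen, held 6.01, 5.17 and 4.85 CPM in WT and 11.6, 5.65 and 7.90 CPM in ADCY3∆AT. Its groups overlapped, and its log2 difference of 0.65 (SE 0.25, 95% interval 0.08 to 1.23, edgeR adjusted p = 0.172) was 0.36 without ADCY3∆AT replicate 1, the highest library. Beside this, the 10 mural cell markers other than these genes summed to between 430.02 and 456 CPM in WT and between 400 and 429 CPM in ADCY3∆AT. These sums did not overlap. Of the 10, 5 had positive and 5 negative log2 fold changes (median 0.01), and 1, Cspg4, fell (log2 -0.55, edgeR adjusted p = 0.00933). An unadjusted p under 0.05 in edgeR was reached by 3 of the 10, beside 22.6% of all genes. These were Cspg4, Kcnj8, which was lower (log2 -0.43), and Higd1b, which was higher (log2 0.64). Without Cspg4, the other 9 summed to between 326 and 361 CPM in WT and between 329.8 and 355 CPM in ADCY3∆AT, which overlap. In bulk tissue, fewer cells of a type and less RNA per cell cannot be told apart.

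**Figure D2:**
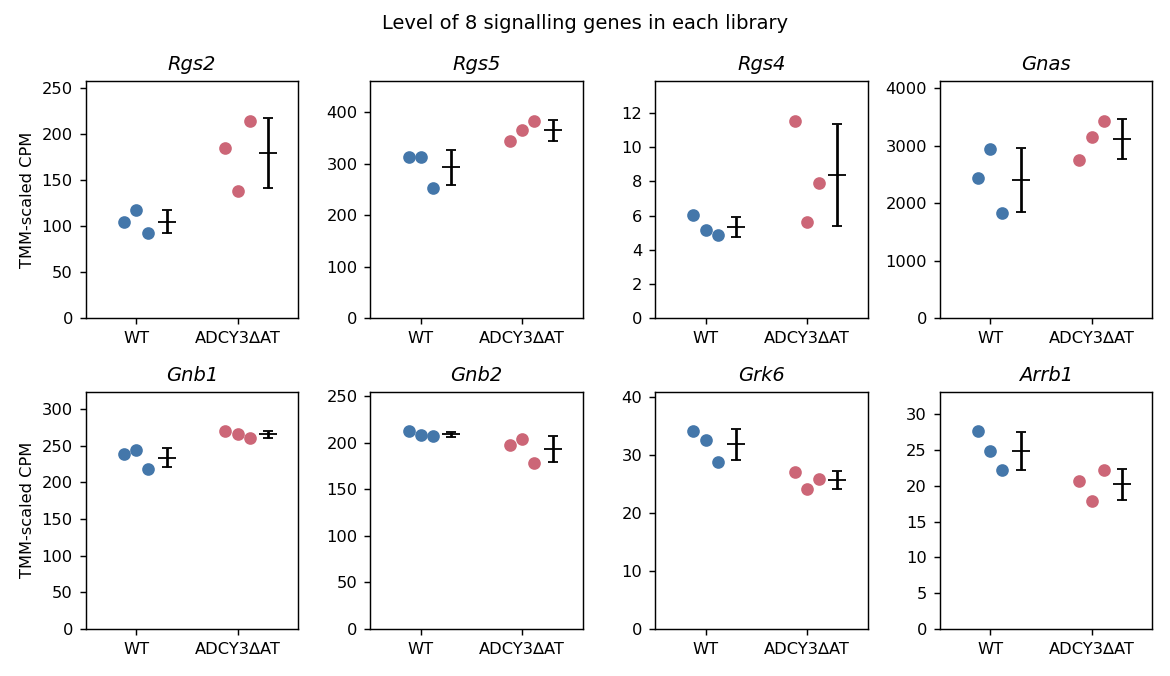
TMM-scaled CPM (y axes, from 0) of 8 members in each library, with the mean and SD (n = 3) beside each group in black. Groups do not overlap for Rgs2, Rgs5, Gnb1, Gnb2, Grk6 and Arrb1, and overlap for Rgs4 and Gnas. Of the 8, Rgs2 alone passed the edgeR test with all libraries.

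The other RGS genes were not called. Rgs7, which pairs with Gnb5 and acts on Gi and Go, was the third most abundant per length, at 61.8 ± 3.36 CPM in WT and 65.9 ± 0.549 CPM in ADCY3∆AT (SD, n = 3). Its log2 fold change was 0.09, with a 95% interval from -0.06 to 0.25. Rgs3, another R4 protein, held 78.0 to 106 CPM in WT and 84.7 to 109 CPM in ADCY3∆AT (log2 0.12, and 0.25 without WT replicate 3). Rgs12 and Rgs19 stood at between 4.84 and 7.89 CPM in every library, with log2 fold changes of -0.19 and -0.17 (-0.06 for Rgs19 without WT replicate 3). Rgs10 and Rgs14 had at most 34 counts in a library, and their 95% intervals (log2 -0.38 to 1.45 and -0.93 to 1.07) do not exclude a rise of 2-fold. Their log2 fold changes of 0.53 and 0.07 were 0.95 and 0.57 without WT replicate 3. Rgs1, an RGS gene of lymphocytes, Rgs16 and Rgs17 were not tested, with at most 4, 12 and 8 counts in a library. The 12 counts of Rgs16 were in ADCY3∆AT replicate 1, and its other libraries had 0 to 3 counts. Where none was counted, up to 3 counts remain possible, or 0.152 to 0.222 CPM by library, a limit for counting error only. Per length, Rgs5 (55.5 to 84.4 CPM per kilobase over the 6 libraries) and Rgs2 (25.6 to 59.3) led the RGS genes. Rgs7 (mean 10.6, lowest 9.76) and Rgs3 (mean 8.66, highest 10.1) came next and overlapped.

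Among alpha subunits, Gnas was the most abundant by far and no subunit passed the test. Gnas lies on chromosome 2 from 174284320 to 174346744, and its single row holds all transcripts of an imprinted locus with several start sites, so Gs alpha and the longer forms cannot be told apart. It held 2445, 2936 and 1830 CPM in WT and 2747, 3158 and 3438 CPM in ADCY3∆AT. The groups overlapped, since WT replicate 2 lay above ADCY3∆AT replicate 1. On the log2 scale the difference was 0.37 (95% interval 0.00 to 0.74, SE 0.16, edgeR adjusted p = 0.219), and it was 0.21 without WT replicate 3, the lowest library. Exons of the antisense genes Gm20721 and Nespas cover 22.0% of the exon bases of Gnas. Gm20721 held 15.2 ± 7.42 CPM in WT and 10.02 ± 1.91 CPM in ADCY3∆AT (SD, n = 3), and Nespas was below 0.1 CPM.

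The 3 Gi genes, whose products inhibit adenylyl cyclase, and their relative Gnao1 had log2 fold changes from -0.15 to 0.16. Gnai3 held 30.9, 30.0 and 29.5 CPM in WT and 33.0, 34.9 and 33.2 CPM in ADCY3∆AT. Its groups did not overlap, yet the difference was small (log2 0.16, SE 0.07, 95% interval -0.00 to 0.32, edgeR adjusted p = 0.229). Gnai2, the most abundant of the class per length, held 118 ± 8.08 CPM in WT and 110 ± 6.69 CPM in ADCY3∆AT (log2 -0.10, interval -0.28 to 0.07). Gnai1 had a log2 fold change of -0.15 and Gnao1 of -0.11. Without WT replicate 3 these values were -0.05 for Gnai2, -0.03 for Gnai1 and -0.23 for Gnao1. Gnao1 turned to 0.06 without WT replicate 2, where it was highest. Gnaz had 4 to 12 counts in a library and was not tested.

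The Gq and G12 classes had log2 fold changes from 0.02 to 0.11. Gnaq held 48.8 ± 2.13 CPM in WT and 49.4 ± 2.20 CPM in ADCY3∆AT (SD, n = 3), a log2 fold change of 0.02 with a 95% interval from -0.15 to 0.18. Its relative Gna11 held 103 CPM in each WT library and 106, 115 and 115 CPM in ADCY3∆AT (log2 0.11, edgeR adjusted p = 0.333), again without overlap. Gna12 and Gna13, the members of the G12 class, had log2 fold changes of 0.11 and 0.06, which were 0.01 and 0.02 without WT replicate 3. Per length, Gnas stood at 164 to 307 CPM per kilobase over the 6 libraries. Gnai2 (27.3 to 33.8), Gna12 (25.2 to 33.6) and Gna11 (25.1 to 28.0) followed and overlapped each other, and the other 5 tested alpha genes lay between 5.33 and 14.6.

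**Figure D3:**
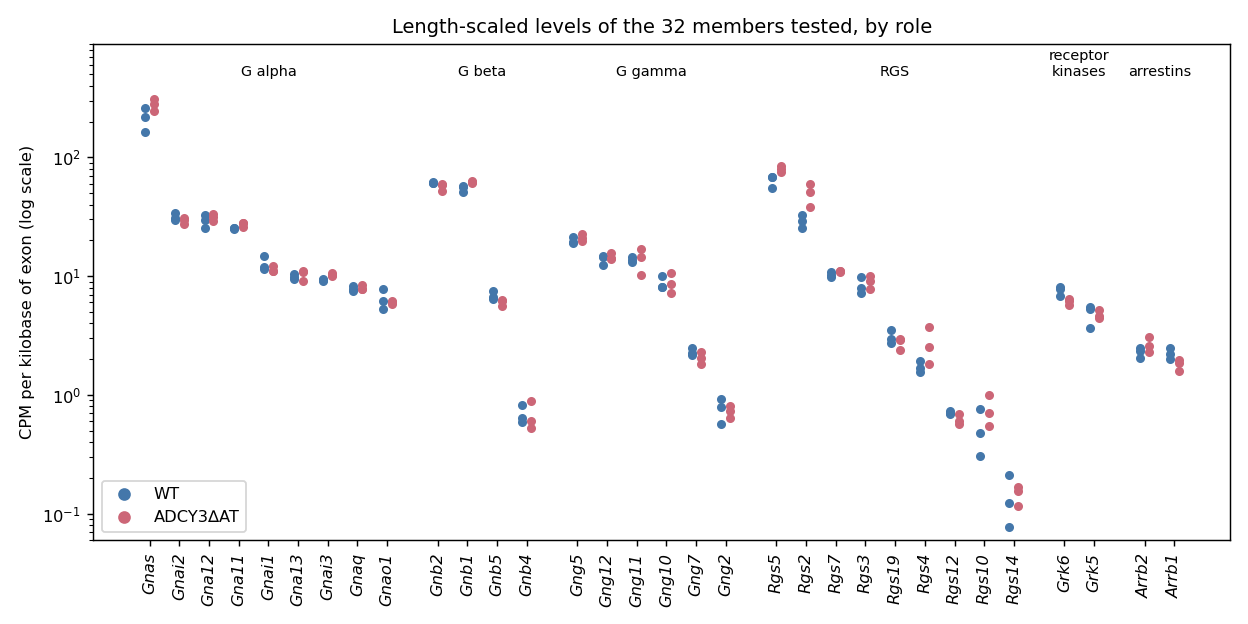
CPM per kilobase of exon (y axis, log scale) of the 32 members tested, by role, with 1 point per library (blue WT, red ADCY3∆AT). Gnas, Rgs5, Gnb2 and Gnb1 lead, and levels run down to those of Rgs14. Points of the genotypes lie close together for most genes beside the spread between genes.

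Gnas made up 62.5, 66.2 and 55.5% of the length-scaled alpha subunit RNA in WT and 64.7, 67.5 and 70.0% in ADCY3∆AT. The groups overlapped (61.4 ± 5.44% against 67.4 ± 2.65%, SD, n = 3, exact permutation p = 0.2, two-sided, where 0.1 is the smallest possible). The Gi class (Gnai1, Gnai2, Gnai3, Gnao1 and Gnaz) took 17.6 ± 3.38% in WT and 13.9 ± 1.26% in ADCY3∆AT (exact permutation p = 0.2), G12 11.3 ± 0.552% and 10.2 ± 1.07% (exact permutation p = 0.2), and Gq 9.68 ± 1.58% and 8.56 ± 0.349% (exact permutation p = 0.3). The log2 ratio of Gnas to the summed Gi class was 1.92, 2.16 and 1.38 in WT and 2.09, 2.30 and 2.46 in ADCY3∆AT. Here too WT replicate 2 lay above ADCY3∆AT replicate 1, and WT replicate 3 was the lowest. Without WT replicate 3 the difference between the genotypes shrank from 5.97 to 3.01 percentage points for Gnas, from -3.69 to -1.81 for Gi and from -1.12 to -0.28 for Gq, and from 0.46 to 0.24 for the log2 ratio. The 15 shares and ratios of this kind that were tested had adjusted exact permutation p-values of at least 0.375. With no length scaling, the mean share of Gnas was 80.2% in WT and 84.2% in ADCY3∆AT, and that of Gi 8.96% and 6.72%. The size of these shares thus depends on the exon length used, which for Gnas spans all its start sites. The alpha shares add up to the whole, so the lower Gi, G12 and Gq shares are not separate from the higher Gnas share.

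Beta subunits form a dimer with a gamma subunit that holds the alpha subunit at the membrane and signals by itself once released. The main beta genes, Gnb1 and Gnb2, leaned in opposite directions without passing the test. Gnb1 held 238, 244 and 219 CPM in WT and 270, 266 and 260 CPM in ADCY3∆AT (log2 0.18, SE 0.07, 95% interval 0.03 to 0.34, edgeR adjusted p = 0.147). Gnb2 held 212, 208 and 207 CPM in WT and 198, 204 and 178 CPM in ADCY3∆AT (log2 -0.11, SE 0.07, interval -0.28 to 0.05, edgeR adjusted p = 0.377). Neither gene's groups overlapped. The share of Gnb1 in length-scaled beta subunit RNA was 44.2, 45.5 and 42.9% in WT and 49.2, 48.3 and 51.1% in ADCY3∆AT, and that of Gnb2 was 49.4, 48.8 and 50.9% in WT and 45.3, 46.4 and 43.8% in ADCY3∆AT. Each share differed between the genotypes by more than the spread between libraries, with an exact permutation p of 0.1, the smallest possible, and 0.375 after adjustment over the 15. The difference for Gnb1 ran from 4.56 to 5.97 percentage points when each library was left out. The beta shares add up to the whole, so the differences for Gnb1 and Gnb2 are not separate results. Gnb5, the partner of the R7 RGS proteins, held 23.3, 19.9 and 20.9 CPM in WT and 19.5, 19.1 and 17.3 CPM in ADCY3∆AT (log2 -0.20, SE 0.09, edgeR adjusted p = 0.254), and its groups did not overlap. Gnb4 stood at 6.68 to 11.2 CPM over all libraries (log2 -0.04, 95% interval -0.53 to 0.45).

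**Figure D4:**
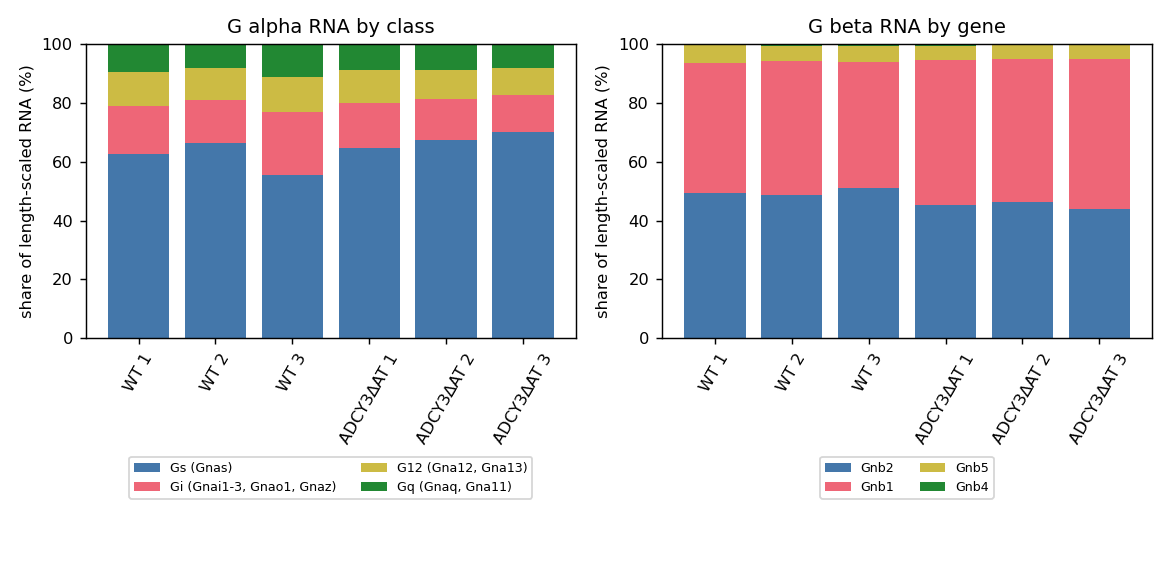
Share of length-scaled RNA (y axes, percent) in each library, for alpha subunits by class (left) and for beta subunits by gene (right). The Gs share is lowest in WT replicate 3 at 55.5% and overlaps between genotypes, while the share of Gnb2 is below 47% in the 3 ADCY3∆AT libraries and above 48% in the 3 WT libraries.

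None of the 6 gamma subunits was called, and their log2 fold changes lay between -0.16 and 0.08. DESeq2 and limma-voom also called 0 of them, and 0 had an unadjusted p under 0.05 in edgeR. Gng5, the most abundant per length (19.0 to 22.4 CPM per kilobase), held 53.5, 52.5 and 58.8 CPM in WT and 54.2, 62.0 and 57.6 CPM in ADCY3∆AT (log2 0.07, SE 0.08, edgeR adjusted p = 0.628, and 0.13 without WT replicate 3). Gng7 had the smallest p of the group, at 8.49, 8.20 and 9.47 CPM in WT and 6.94, 7.77 and 8.66 CPM in ADCY3∆AT, which overlap (log2 -0.16, SE 0.13, edgeR adjusted p = 0.507, and -0.10 without WT replicate 3). Gng12, Gng11, Gng10 and Gng2 had log2 fold changes of 0.08, 0.00, -0.00 and -0.07. When each library was left out, the value for Gng12 ran from 0.0043 to 0.12. Gng10 shares 72.0% of its exon bases with the gene Gm20503, which was listed at 0 in all 6 libraries. How reads over the shared bases were divided was not tested.

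The receptor kinase Grk6 and beta-arrestin 1, which both act on receptors after activation, had the lowest fold changes of all members. Grk6 held 34.0, 32.5 and 28.7 CPM in WT and 27.1, 24.0 and 25.8 CPM in ADCY3∆AT. The groups did not overlap, with a log2 difference of -0.31 (95% interval -0.52 to -0.10, SE 0.09, edgeR adjusted p = 0.0985). It was -0.38 without WT replicate 3 and -0.25 without WT replicate 1. Grk5 held 26.1, 38.5 and 37.4 CPM in WT and 36.7, 31.2 and 32.3 CPM in ADCY3∆AT, with full overlap (log2 -0.03, edgeR adjusted p = 0.937). Arrb1 held 27.6, 24.8 and 22.3 CPM in WT and 20.6, 17.9 and 22.2 CPM in ADCY3∆AT. Its groups barely missed each other (log2 -0.30, SE 0.11, 95% interval -0.56 to -0.04, edgeR adjusted p = 0.172). Arrb2, the other beta-arrestin and slightly the higher of the pair per length, held 6.73, 5.76 and 7.10 CPM in WT and 6.49, 7.31 and 8.76 CPM in ADCY3∆AT. These groups overlapped (log2 0.20, SE 0.16, edgeR adjusted p = 0.496).

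**Figure D5:**
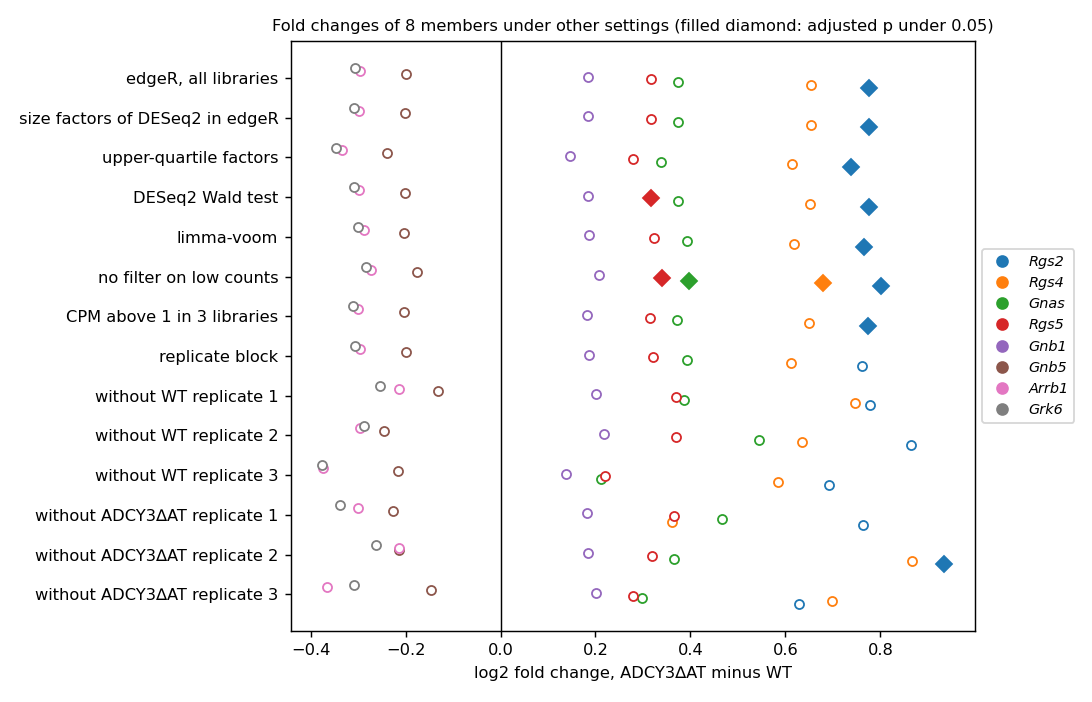
Log2 fold change (ADCY3∆AT minus WT, x axis) of 8 members under each scaling, test, filter, design or left-out library (y axis), with filled diamonds where the adjusted p was under 0.05. Each of the 8 kept its sign in all settings shown. Since they include the 7 members with an unadjusted p under 0.05 in edgeR, the steady signs are no independent result. Some members not shown turned sign. Rgs2 was called in 7 of the 13 alternatives.

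Other genes of these families added no call. Of 30 listed names 28 were found in the table, 7 had enough counts, and 0 were called by edgeR, with 0 at an unadjusted p under 0.05. They include the abundant receptor kinases Grk2 (64.5 ± 0.753 CPM in WT and 71.3 ± 4.94 CPM in ADCY3∆AT, SD, n = 3) and Grk3 (77.2 ± 9.59 and 74.9 ± 17.0 CPM), which were picked after their values were seen. Among 24 tested regulators of G proteins, 0 rose and 1 fell, Usp20 (log2 -0.40, edgeR adjusted p = 0.0307), which removes ubiquitin from the beta 2-adrenergic receptor. Of 20 tested effectors 0 were called by edgeR, with 3 at an unadjusted p under 0.05, and Adcy3 had a log2 fold change of -0.05.

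At the receptors that these proteins serve, individual genes rose and fell. Of 27 tested receptors 3 rose and 4 fell in edgeR, a share of 25.9%, where 4.30% of all genes tested were called. This list was chosen with earlier results of these data known, so its share beside that of all genes is no test of enrichment. The median log2 fold change of the 27 was -0.14. The 4 with the smallest p were Adrb1 (log2 -1.43), Adrb3 (log2 0.96), both beta-adrenergic receptors that couple to Gs, the succinate receptor Sucnr1 (log2 -1.75) and the lactate receptor Hcar1 (log2 -1.36), which couple to Gi. Their edgeR adjusted p-values were 0.00353, 0.00435, 0.0131 and 0.0275. In WT and ADCY3∆AT, Adrb1 held 46.7 ± 7.96 and 17.3 ± 2.36 CPM, and Adrb3 129 ± 6.01 and 251 ± 36.8 CPM (SD, n = 3). Sucnr1 was low, at 2.35 ± 0.294 and 0.692 ± 0.0875 CPM. Hcar1 held 48.1 ± 19.0 and 18.7 ± 2.55 CPM, with its highest value, 69.2 CPM, in WT replicate 3.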

How the data were processed

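Values are estimated counts per gene, deposited as 1 table (54385 rows, 6 library columns). Per the submitters' processing notes, StringTie, Salmon, edgeR and the GRCm38 build were used, with versions and roles not given in the sources used here. Whether counting kept the strand is not given either, so reads of antisense genes cannot be told apart. Columns were matched by the number in each sample's description, and 54131 rows matched a symbol in GENCODE M21.

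Counts were rounded. Genes passing filterByExpr (minimum count 10, minimum total 15) were scaled by TMM and compared over all 6 libraries, without covariates, by the quasi-likelihood F test (two-sided) in edgeR 4.0.16 under R 4.3.3, with Benjamini-Hochberg adjustment over 14332 genes. Alternatives used DESeq2 1.42.0, limma 3.58.1, other scaling and filters, a replicate block, and leaving out each library. The test was checked on simulated data. Exact permutation tests compared shares of length-scaled levels.

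Between libraries of 1 genotype, chi-square per gene was 6.18 to 16.6 in WT and 19.3 to 26.8 in ADCY3∆AT, which exceeds counting noise. Each library counted as 1 replicate. All members were named: full values go to called members, or else to the 2 with the smallest p in a role, and to the most abundant per length. From each other list up to 4 called genes by smallest p were named. Members and lists were chosen with earlier results of these data known. The lists of markers of adipocytes, macrophages, lymphocytes, endothelium, fibroblasts, Schwann cells and nerve, and erythroid cells are given in the closing section.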

Additional observations from a re-analysis of the deposited data

How the results depend on the processing

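The number of genes called was 616 of 14332 (4.30%). It was 993 of 14332 with the DESeq2 Wald test (6.93%) and 324 of 14332 with the replicate block (2.26%). With no filter on low counts, more genes were tested, and 1951 of 34083 were called (5.72%). When each library was left out, the number ran from 162 (1.08%, without WT replicate 1) to 461 (3.16%, without ADCY3∆AT replicate 1). The share of higher calls was 50.7% with upper-quartile factors (282 higher, 274 lower), against 377 higher and 239 lower with TMM. The number of members called higher was 1 of 32 tested. With DESeq2 it was 2 of the 31 with an adjusted p (adding Rgs5). With no filter it was 4 of 36 tested (adding Rgs5, Gnas and Rgs4). It was 0 with the replicate block and 0 to 1 when each library was left out. In the 13 alternatives 0 members were called lower. No test compared these counts with the shares over all genes.

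With the replicate block, the log2 value of Rgs2 was 0.76 (edgeR adjusted p = 0.0881). Deviations of libraries with the same number correlated between -0.0486 and 0.00134, and not every library correlated best with its own number. Over the genes tested, libraries of the same number thus shared no broad deviation. Such a correlation cannot settle whether the numbers pair the libraries in some other way.

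Signs turned for members near 0: Gnaq was -0.0200 and Gng11 -0.0334 with upper-quartile factors, Gng11 was -0.0378 with limma-voom and -0.0177 with the replicate block, and Gng10 was 0.0241 with no filter. Without 1 library the values ran from -0.23 to 0.0567 for Gnao1, -0.0150 to 0.0521 for Gnaq, -0.28 to 0.12 for Gnb4, -0.24 to 0.0886 for Gng2, -0.15 to 0.13 for Gng10, -0.15 to 0.20 for Gng11, -0.21 to 0.57 for Rgs14, -0.18 to 0.0725 for Grk5 and 0.63 to 0.93 for Rgs2; the causes were not tested. The differences in shares moved by less than 1 SD, pooled over both genotypes, in all 105 alternative values, but this SD is wide. Without 1 library they ran from 3.01 to 8.37 percentage points for Gs, -5.06 to -1.81 for Gi, -1.85 to -0.28 for Gq and -1.70 to -0.63 for G12, and turned sign for 6 (Gnb4, Gng2, Gng5, Gng10, Gng11 and Gng12). Low counts limit what can be said of Rgs1, Rgs10, Rgs14, Rgs16, Rgs17 and Gnaz.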

Other observations

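WT replicate 3, the library with the most muscle RNA, was the lowest of the 6 for 9 of the 32 tested members (28.1%) and for 22.9% of all genes tested. Its brown adipocyte markers summed to 7656 CPM, and those of the other 5 libraries to between 7901 and 9390 CPM. Ucp1 weighs heavily in this sum, at 3679 CPM in WT replicate 3 and 5248 and 5432 CPM in the other WT libraries. The markers did not all go this way, since Cox8b was highest of all libraries in WT replicate 3 (721 CPM). The 8 adipocyte markers also summed highest there (13640 CPM, against 10798 to 11548 CPM in the other 5).

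Markers of other cell types gave these sums. Adipocyte markers took 11408 to 13640 CPM in WT and 10798 to 11488 CPM in ADCY3∆AT, with 1 of 8 called lower (Lep). Macrophage markers took 62.9 to 111 and 60.2 to 103 CPM, lymphocyte markers 5.32 to 7.44 and 3.74 to 8.30 CPM, endothelial markers 534 to 612 and 573 to 613 CPM, fibroblast markers 349.7 to 558 and 314 to 528 CPM, Schwann cell and nerve markers 131 to 154 and 129.7 to 205 CPM, and erythroid markers 805 to 1720 and 728 to 1379 CPM. Of these 6 lists, 0 members were called by edgeR, and 7 had an unadjusted p under 0.05 (4 endothelial, 3 of Schwann cells and nerve). Th, the enzyme of noradrenaline synthesis, was at 0 in all 6 libraries. Of 17 skeletal muscle markers 13 were tested, and 8 fell.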
